A study of Mus musculus with 12 samples.

Results

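The genes described here are 10 genes of epithelial adhesion and of epithelial-mesenchymal transition (EMT), chosen by name from the 55401 genes of a table of RNA levels in mouse oral tumours. They are Epcam, Cdh1, Ocln, Cdh2, Vim, Zeb1, Zeb2, Snai1, Snai2 and Twist1, and each matched 1 row of the table. The 12 RNA-seq libraries were labelled as orthotopic oral tumours of C57BL/6 mice injected with MTC-Q1 cells, a mouse oral cancer line, of which the study used a luciferase-expressing subline (Q1-2) injected into the cheek lining. Mice were treated by the intraperitoneal route from a tumour size of 100 mm3, with 3 libraries per group. The groups were Ctrl-IgG, a control isotype antibody (IgG1-Fc), aCSF1R, an antibody against CSF1R, on which macrophages depend for growth and survival, IL-10-Fc, interleukin-10 joined to an antibody Fc part, and BF10, human interleukin-10 joined to the CSF1R antibody clone AFS98. The mice were 6 to 8 weeks old when bought, and their sex is not given per sample. The design text and the methods give 4 doses, and the treatment label gives 6.

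In an epithelium, neighbouring cells are held together by E-cadherin (Cdh1) in adherens junctions, by occludin (Ocln) in tight junctions and by the adhesion molecule Epcam. During EMT, a programme of development that carcinoma cells can take up, these genes are repressed by the transcription factors of the Snail (Snai1, Snai2), Zeb (Zeb1, Zeb2) and Twist (Twist1) families. The cells then make N-cadherin (Cdh2) and the intermediate filament vimentin (Vim), which fibroblasts, endothelial cells and leukocytes also make. In bulk tissue, fewer cells of a type and less RNA per cell cannot be told apart.

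Snail and Zeb factors bind the DNA letters CACCTG, or CAGGTG on the other strand. The 250 bases before the transcription start are shown for the gene with the largest difference below, Epcam, for Ocln, and for Snai1. Snai1 encodes a repressor that was itself lower in BF10 than in aCSF1R. As given below, this difference did not pass the test with any 1 library of those groups left out. The sequences are from RefSeq on GRCm38.p6, read 5′ to 3′ in the direction of the gene, and capitals mark CACCTG or CAGGTG. The windows are chr17:87635729-87635978 on the plus strand for Epcam, chr13:100552719-100552968 on the minus strand for Ocln and chr2:167537945-167538194 on the plus strand for Snai1, and none overlapped an annotated exon (0 exons).
Epcam: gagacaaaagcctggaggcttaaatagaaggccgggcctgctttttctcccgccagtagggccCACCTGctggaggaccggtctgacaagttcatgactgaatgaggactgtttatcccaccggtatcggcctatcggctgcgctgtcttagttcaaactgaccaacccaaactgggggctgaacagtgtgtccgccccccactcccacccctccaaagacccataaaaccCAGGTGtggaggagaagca
Ocln: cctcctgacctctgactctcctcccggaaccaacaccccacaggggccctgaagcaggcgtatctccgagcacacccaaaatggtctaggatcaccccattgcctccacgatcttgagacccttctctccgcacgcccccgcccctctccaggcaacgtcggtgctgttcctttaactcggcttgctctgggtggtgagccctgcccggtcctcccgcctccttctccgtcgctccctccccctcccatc
Snai1: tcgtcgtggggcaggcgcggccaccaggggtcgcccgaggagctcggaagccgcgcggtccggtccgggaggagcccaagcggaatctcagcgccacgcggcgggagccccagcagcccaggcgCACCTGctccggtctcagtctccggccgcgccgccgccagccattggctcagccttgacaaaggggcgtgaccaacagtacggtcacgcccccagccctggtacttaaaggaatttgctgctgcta
The Epcam window held 2 matches, CACCTG starting at position -187 and CAGGTG at position -19, counted from -1 at the last base before the start. The Snai1 window held 1, CACCTG at position -126, and the Ocln window held 0. Of 32851 RefSeq promoters, 17.2% held either form in the same 250 bases. A match is a run of letters and not a measured binding site.

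Before the comparisons, 2 features of the libraries touch every result. The Ctrl-IgG and aCSF1R libraries differed from the libraries labelled IL-10-Fc and BF10 in genes that no treatment is meant to change. The MHC class II gene H2-Ea, which C57BL/6 mice do not transcribe because of a deletion at its start, was at most 0.27 FPKM in the former and at least 552.78 FPKM in the latter, so the 6 libraries labelled IL-10-Fc or BF10 go against the labelled strain at this gene. FPKM is the number of fragments of a gene divided by its transcript length and by the size of the library. Xist, made in cells with an inactive X chromosome, was at most 0.04 against at least 17.09 FPKM, and the Y-linked Eif2s3y was at least 4.23 FPKM in Ctrl-IgG and aCSF1R and listed at 0 in all of IL-10-Fc and in BF10 replicate 2, with 0.05 and 3.29 FPKM in BF10 replicates 1 and 3. The Y-linked Ddx3y, Kdm5d and Uty were likewise higher in every Ctrl-IgG and aCSF1R library, with 1.31, 0.33 and 0.15 FPKM in BF10 replicate 3. Treatment and the origin of the tissue therefore cannot be told apart in any comparison of IL-10-Fc or BF10 with Ctrl-IgG or aCSF1R. The second feature is the mitochondrial share of the FPKM sum, which was 6.57% to 9.04% in 4 libraries and 2.99% to 3.61% in the other 8. These were replicate 2 of Ctrl-IgG, replicate 1 of BF10 and replicates 1 and 2 of IL-10-Fc.

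All 10 genes passed the filter on low values (at least 1 FPKM in at least 3 libraries), as did 15813 genes in all. Differences are given on the scale of log2(FPKM + 1) with the standard error (SE) of limma, a linear model fitted to all 12 libraries. A gene was called higher or lower at a Benjamini-Hochberg adjusted p under 0.05 over all tested genes and a fold change of at least 1.5. Replicates are separate libraries of a group. The sample titles add codes that the labels do not explain, and nothing says which animals the libraries came from, so the p-values measure the spread between these samples.

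**Figure D1:**
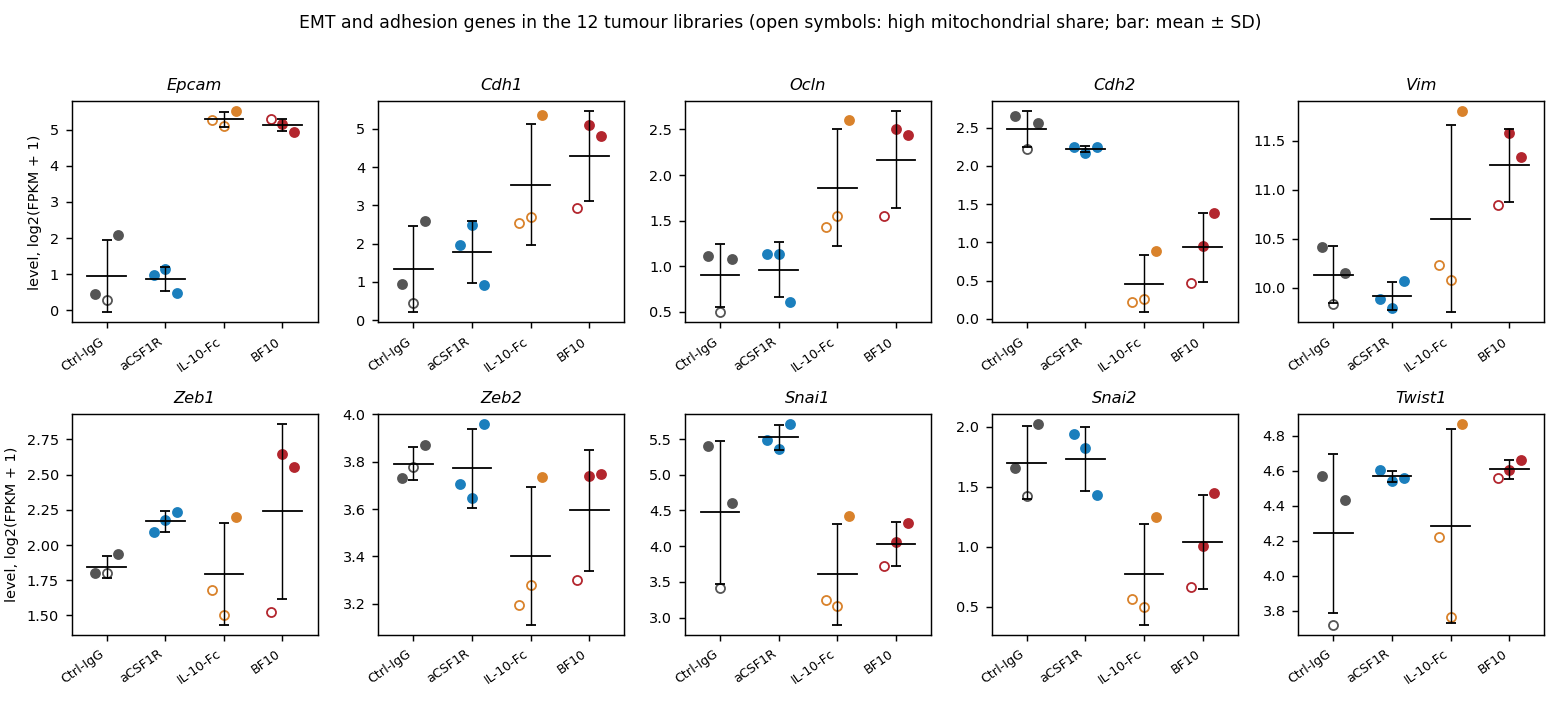
Levels of the 10 genes as log2(FPKM + 1) (vertical axis, its range set for each gene) in the 4 groups, with 1 symbol per library, the mean as a horizontal bar and the SD as whiskers. Open symbols are the 4 libraries with a mitochondrial share of 6.57% or more. Epcam lies at 29.85 FPKM or more in every IL-10-Fc and BF10 library and at 3.26 FPKM or less in every other library, whereas the levels of Zeb2 and Twist1 overlap between the sides.

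BF10 was first set against Ctrl-IgG, a comparison meant for the whole fusion protein, in which tissue origin cannot be told apart from treatment. The junction and adhesion genes Epcam, Cdh1 and Ocln were higher in BF10, and Cdh2 was lower. limma called 4 of the 10 genes, 3 higher and 1 lower, where 24.9% of all tested genes were called, 11.8% as higher and 13.2% as lower. Groups without overlap were found for 5 of the 10 genes, against 38.4% of all tested genes. The other member without overlap was Vim. The median difference was 0.38 over the 10 genes and -0.12 over all tested genes. Against IL-10-Fc, 0 of the 10 genes were called, as shown further down.

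Epcam (ENSMUSG00000045394, GRCm38 chromosome 17, 87635979 to 87651129, plus strand) encodes an adhesion molecule of simple epithelia and carcinomas. It was 0.38, 0.21 and 3.26 FPKM in Ctrl-IgG replicates 1 to 3 and 38.08, 34.53 and 29.85 FPKM in BF10 replicates 1 to 3. Every BF10 library lay above every Ctrl-IgG library, and Ctrl-IgG replicate 3 stood above the other two. The difference was 4.19 (SE 0.42, limma adjusted p 8.03e-05), or 18.2-fold on this scale, and 5.42 with a pseudocount of 0.1 in place of 1. With each Ctrl-IgG or BF10 library left out in turn it was 3.85 to 4.76, with a limma adjusted p of at most 0.000705.

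Cdh1 (ENSMUSG00000000303, chromosome 8, 106603351 to 106670246, plus strand), the cadherin of epithelial adherens junctions, was 0.92, 0.37 and 5.08 FPKM in Ctrl-IgG and 6.67, 33.31 and 27.19 FPKM in BF10. The groups did not overlap, but BF10 replicate 1, the BF10 library of high mitochondrial share, lay nearer to Ctrl-IgG replicate 3 than to the other BF10 libraries. The difference was 2.95 (SE 0.86, limma adjusted p 0.028). The call was lost when Ctrl-IgG replicate 1 or 2 or BF10 replicate 2 or 3 was left out, with differences of 2.51 to 2.76 and limma adjusted p of 0.0873 to 0.107, and also with no filter on low values (limma adjusted p 0.0602) and after rescaling to TPM (0.0544).

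Ocln (ENSMUSG00000021638, chromosome 13, 100496507 to 100552718, minus strand), a membrane protein of tight junctions, had the lowest mean of the 3 epithelial genes in BF10. Its levels were 1.17, 0.41 and 1.12 FPKM in Ctrl-IgG and 1.94, 4.69 and 4.42 FPKM in BF10, without overlap. The difference was 1.27 (SE 0.37, limma adjusted p 0.0279). It lost its call without Ctrl-IgG replicate 1 or 2 or BF10 replicate 2 or 3 (differences of 1.07 to 1.38, limma adjusted p 0.0529 to 0.107), and likewise with no filter (0.064), after rescaling to TPM (0.0735) and in a fit of these groups alone (0.0506).

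Cdh2 (ENSMUSG00000024304, chromosome 18, 16588877 to 16809246, minus strand), the cadherin that EMT brings in, went the other way. It was 5.32, 3.65 and 4.92 FPKM in Ctrl-IgG and 0.39, 0.93 and 1.61 FPKM in BF10, so that every BF10 library lay below every Ctrl-IgG library. The difference was -1.55 (SE 0.27, limma adjusted p 0.00212). It ran from -1.77 to -1.31 with each Ctrl-IgG or BF10 library left out, with a limma adjusted p of at most 0.0114. With a pseudocount of 0.1 the differences of the other called genes were also larger, at -2.30 for Cdh2, 3.76 for Cdh1 and 1.93 for Ocln. BF10 replicate 3, which held the most Cdh2 of its group, also held the most skeletal muscle RNA of its group and the Y-linked transcripts named above, and the part of these in its level was not tested. In 1 library at a time, Cdh1 minus Cdh2 on the log2(FPKM + 1) scale was -1.72, -1.76 and 0.04 in Ctrl-IgG and 2.46, 4.15 and 3.43 in BF10.

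Vim (ENSMUSG00000026728, chromosome 2, 13573927 to 13582826, plus strand), the vimentin gene, was by far the most abundant of the 10 genes in FPKM, which is a level per transcript length. It was 1362.77, 910.32 and 1135.21 FPKM in Ctrl-IgG and 1838.84, 3057.18 and 2575.57 FPKM in BF10, without overlap. The difference was 1.12 (SE 0.41, limma adjusted p 0.0712) and not called. It was called with median-of-ratios size factors (1.17, limma adjusted p 0.0216), with the log2 FPKM sum as a covariate (1.05, 0.000358), in a fit of these groups alone (0.0447) and without the 4 libraries of high mitochondrial share (1.17, 0.00193).

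None of the 5 EMT transcription factors was called in BF10 against Ctrl-IgG (0 by limma, 1 at an unadjusted p under 0.05, Snai2). Of all 15813 tested genes, 24.9% were called and 5740 had an unadjusted p under 0.05. Counts among so few genes do not set these factors apart from that share. Zeb1 (ENSMUSG00000024238, chromosome 18, 5591860 to 5775467) differed by 0.40, Zeb2 (ENSMUSG00000026872, chromosome 2, 44983632 to 45117395) by -0.20, Snai1 (ENSMUSG00000042821, chromosome 2, 167538195 to 167542814) by -0.44, Snai2 (ENSMUSG00000022676, chromosome 16, 14705852 to 14709385) by -0.66 and Twist1 (ENSMUSG00000035799, chromosome 12, 33957671 to 33959829) by 0.37. Their 95% intervals still allowed differences such as -1.48 to 0.60 for Snai1 and -0.27 to 1.07 for Zeb1. Zeb1 was called higher without BF10 replicate 1 (0.75, limma adjusted p 0.0476) and without the 4 libraries of high mitochondrial share (0.73, 0.00509), and Snai1 was 0.02 without Ctrl-IgG replicate 1. Without those 4 libraries Snai1 was called lower (-0.82, 0.0407), and Snai2 was called lower after quantile normalization (-0.73, 0.0103) and with the FPKM sum as a covariate (-0.70, 0.00863). Exons of Zeb2 overlap those of the antisense gene Zeb2os (1.33 to 9.17 FPKM), and whether the counting used strand is not given in the sources used here, so the Zeb2 level is uncertain.

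**Figure D2:**
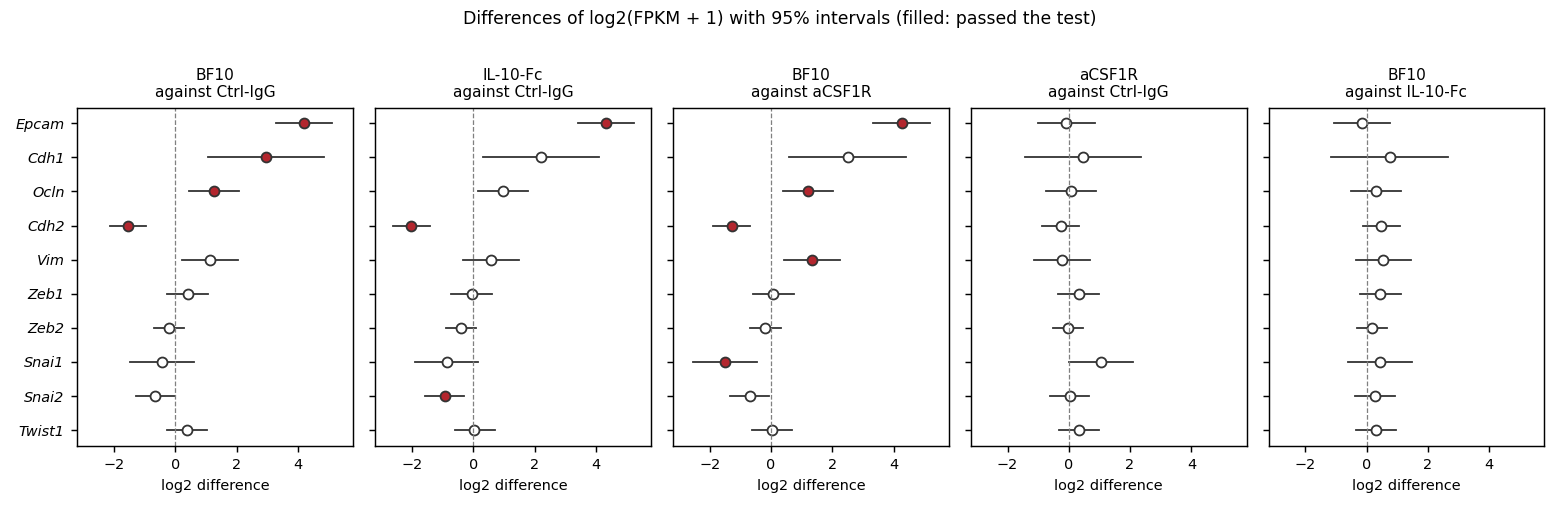
Differences of log2(FPKM + 1) for the 10 genes in 5 comparisons (horizontal axis), with 95% intervals as lines and filled symbols for genes that limma called. Epcam and Cdh2 are filled in the 3 panels that set BF10 or IL-10-Fc against Ctrl-IgG or aCSF1R, and no gene is filled in the panels for aCSF1R against Ctrl-IgG and BF10 against IL-10-Fc.

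IL-10-Fc against Ctrl-IgG was meant for the cytokine on its own, with the same Ctrl-IgG libraries, but here too tissue origin cannot be told apart from treatment. Epcam was higher and Cdh2 and Snai2 were lower. limma called 3 of the 10 genes, 1 higher and 2 lower, where 33.7% of all tested genes were called, 10.1% as higher and 23.6% as lower. Groups without overlap were found for 4 of the 10 genes, against 37.3% of all genes. The median over all tested genes was -0.39 and over the 10 genes 0.00. Median-of-ratios size factors moved the median of all genes to 0.00 and the called genes from 30% higher to 48.6% higher, and quantile normalization to -0.07 and 45.8%.

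Epcam was 37.15, 32.97 and 44.40 FPKM in IL-10-Fc replicates 1 to 3, all above Ctrl-IgG, with a difference of 4.34 (SE 0.42, limma adjusted p 4.8e-05). Cdh2 was 0.17, 0.20 and 0.85 FPKM, all below Ctrl-IgG, with a difference of -2.02 (SE 0.27, limma adjusted p 0.000325). Neither call was lost when an IL-10-Fc or Ctrl-IgG library was left out, with differences of 4.00 to 4.91 for Epcam and -2.24 to -1.91 for Cdh2. With a pseudocount of 0.1 the differences were 5.58 for Epcam, -3.46 for Cdh2 and -1.62 for Snai2. Snai2, which encodes the repressor Slug, was 2.15, 1.68 and 3.07 FPKM in Ctrl-IgG and 0.48, 0.41 and 1.38 FPKM in IL-10-Fc, without overlap. Its difference was -0.93 (SE 0.29, limma adjusted p 0.0293). The Snai2 call was lost without Ctrl-IgG replicate 1 or 3 or IL-10-Fc replicate 1 or 2 (differences of -0.95 to -0.77, limma adjusted p 0.0708 to 0.107), without the 4 libraries of high mitochondrial share (-0.59, 0.17), with no filter (0.0738), after rescaling to TPM (0.0533) and in a fit of these groups alone (0.0885).

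Cdh1 and Ocln were not called in IL-10-Fc. Cdh1 was 4.85, 5.51 and 40.09 FPKM and overlapped Ctrl-IgG (difference 2.20, SE 0.86, limma adjusted p 0.0695). Ocln was 1.70, 1.93 and 5.09 FPKM, above every Ctrl-IgG library (0.96, SE 0.37, limma adjusted p 0.0652). In both genes IL-10-Fc replicate 3 stood far above the other two. With median-of-ratios size factors Cdh1 (2.62, limma adjusted p 0.0153), Ocln (1.29, 0.00317) and Vim (1.07, 0.0284) were all called higher. Without Ctrl-IgG replicate 3 Cdh1 was also called (2.84, limma adjusted p 0.0427), and without IL-10-Fc replicate 3 it was 1.29 and was not.

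Vim was 1202.79, 1078.19 and 3571.55 FPKM in IL-10-Fc, again highest in replicate 3, with a difference of 0.57 (SE 0.41, limma adjusted p 0.301) that was 0.02 without that library. Snai1 was 41.32, 9.63 and 23.33 FPKM in Ctrl-IgG and 8.48, 7.91 and 20.34 FPKM in IL-10-Fc (-0.87, SE 0.47, limma adjusted p 0.176). The Ctrl-IgG levels of Snai1 overlapped the IL-10-Fc levels, with IL-10-Fc replicates 1 and 2 below every Ctrl-IgG library. Without Ctrl-IgG replicate 2 (-1.40, limma adjusted p 0.0235) or IL-10-Fc replicate 3 (-1.27, 0.041) Snai1 was called lower. Zeb1 (-0.05), Zeb2 (-0.39) and Twist1 (0.04) were not called, and each of these differences changed sign under another scaling.

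BF10 against aCSF1R was meant to ask what the cytokine adds to the antibody, with the same limit of tissue origin. Its differences use no Ctrl-IgG library, but its SE and p come from the fit to all 12 libraries. Epcam, Ocln and Vim were higher in BF10, and Cdh2 and Snai1 were lower. limma called 5 of the 10 genes, 3 higher and 2 lower, where 25.0% of all tested genes were called, 11% as higher and 14.0% as lower. Groups without overlap were found for 6 of the 10 genes, against 55.7% of all genes. The medians were 0.06 over the 10 genes and -0.21 over all tested genes.

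Epcam was 0.97, 1.19 and 0.40 FPKM in aCSF1R, far below BF10 (difference 4.26, SE 0.42, limma adjusted p 7.6e-05). Cdh2 was 3.73, 3.50 and 3.73 FPKM, above every BF10 library (-1.28, SE 0.27, limma adjusted p 0.00583). Neither call was lost when a BF10 or aCSF1R library was left out, and with a pseudocount of 0.1 the differences were 5.27 and -1.98. Cdh1 was 2.88, 4.62 and 0.88 FPKM in aCSF1R and did not overlap BF10, but its difference from BF10 (SE 0.86, limma adjusted p 0.0554) was not called. Cdh1 was called without BF10 replicate 1 (3.17, limma adjusted p 0.0286) and in 5 further settings that changed the scaling, the covariate or the libraries fitted.

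Ocln was 1.20, 1.20 and 0.53 FPKM in aCSF1R (difference 1.20, SE 0.37, limma adjusted p 0.0349) and Vim 941.31, 889.03 and 1073.53 FPKM (1.34, SE 0.41, limma adjusted p 0.036), both below every BF10 library. Snai1, the gene of the repressor Snail, was 43.79, 40.28 and 51.56 FPKM in aCSF1R and 12.16, 15.60 and 18.97 FPKM in BF10, without overlap (-1.49, SE 0.47, limma adjusted p 0.0398). These 3 calls rested on the full set of libraries. Without any 1 aCSF1R library, BF10 replicate 2 or BF10 replicate 3, none of them held (Ocln 1.03 to 1.29, Vim 1.17 to 1.41 and Snai1 -1.64 to -1.40, limma adjusted p 0.0596 to 0.121), and without BF10 replicate 1 Snai1 was -1.34 (0.112).

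aCSF1R against Ctrl-IgG, the effect of the antibody alone, and BF10 against IL-10-Fc, what the antibody adds to the cytokine, each compare libraries that match in H2-Ea and Xist. limma called 0 of the 10 genes in either. Over all tested genes it called 0 in the former (0%, with 437 genes at an unadjusted p under 0.05) and 2 in the latter (0.0126%, with 828 genes at an unadjusted p under 0.05). In aCSF1R the largest difference was that of Snai1 (1.05, SE 0.47, limma adjusted p 0.958, unadjusted p 0.0485), the 1 member with an unadjusted p under 0.05. Its Ctrl-IgG levels of 9.63 to 41.32 FPKM overlapped those of aCSF1R, and the difference ran from 0.52 without Ctrl-IgG replicate 2 to 1.52 without Ctrl-IgG replicate 1. Epcam differed by -0.08 (SE 0.42) and Cdh2 by -0.26 (95% interval -0.86 to 0.34).

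Zeb1 was the 1 member whose aCSF1R and Ctrl-IgG libraries did not overlap, against 14.9% of all tested genes. It was 2.48, 2.48 and 2.82 FPKM in Ctrl-IgG and 3.26, 3.53 and 3.71 FPKM in aCSF1R, a difference of 0.32 (SE 0.30, limma adjusted p 0.958). In BF10 against IL-10-Fc, 0 of the 10 genes were without overlap, against 5.18% of all genes. Cdh1 differed most there (0.75, 95% interval -1.15 to 2.65), and it turned to -0.53 with the FPKM sum as a covariate and to -0.40 without the 4 libraries of high mitochondrial share. Epcam differed by -0.15 (-1.07 to 0.77) and Cdh2 by 0.48 (-0.12 to 1.08). These intervals leave room for differences of more than the 1.5-fold threshold in every one of these genes.

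Whether BF10 departed from the sum of IL-10-Fc and aCSF1R on the log2 scale was read from the difference between BF10 and IL-10-Fc less the difference between aCSF1R and Ctrl-IgG. limma called 0 of the 10 genes (0 at an unadjusted p under 0.05) and 1 of all tested genes (0.00632%, with 412 at an unadjusted p under 0.05). The departures ran from -0.63 for Snai1 to 0.76 for Vim, and that of Cdh2 was 0.74 (95% interval -0.11 to 1.59).

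Within the groups labelled IL-10-Fc and BF10, Epcam stood apart from the other 9 genes. Epcam was 32.97 to 38.08 FPKM in the 3 libraries of high mitochondrial share and 29.85 to 44.40 FPKM in the other 3, a difference of 0.01 on the log2(FPKM + 1) scale. Cdh1 was 4.85 to 6.67 FPKM in the former and 27.19 to 40.09 FPKM in the latter, a difference of -2.36, where the median over all tested genes was -0.51. Ocln (1.70 to 1.94 against 4.42 to 5.09 FPKM), Vim (-1.19), Zeb1 (-0.89), Snai1 (-0.89), Cdh2 (-0.75) and Snai2 (-0.66) were also lower in the libraries of high mitochondrial share. Twist1 (-0.53) and Zeb2 (-0.48) lay near the median of all genes. All genes but Epcam, Twist1 and Zeb2 included, were without overlap in this split. The share of all tested genes without overlap in it was not counted, so the overlap sets these genes apart from no others. These are descriptions of 3 libraries against 3 that mix both groups, and the part of the mitochondrial share in them was not tested. The leading number of the unexplained title codes separates the same 3 libraries from the other 3, so that the share and whatever the codes stand for cannot be told apart here. Epcam minus Cdh1 was accordingly 2.35 to 2.71 in the 3 libraries of high share and 0.05 to 0.14 in the other 3.

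The same split shows in which genes varied together. Deviations from the group means were correlated over the 12 libraries as a description, in which genes share library, depth and mitochondrial share. Cdh1 and Ocln deviated together (r 0.92), as did Zeb1 and Zeb2 (0.87) and Cdh2 and Snai2 (0.84). Epithelial and mesenchymal genes deviated together as well, with 0.90 for Cdh1 and Snai2, 0.86 for Ocln and Cdh2 and 0.74 for Cdh1 and Cdh2. Epcam was less tied to the others, from 0.05 with Zeb2 to 0.59 with Cdh1. Its deviations were largest in Ctrl-IgG (0.38, 0.21 and 3.26 FPKM) and small in IL-10-Fc and BF10 (29.85 to 44.40 FPKM). The r values of Epcam, and the genes most like it, therefore rest mainly on low levels in Ctrl-IgG and not on the split above. The genes most like Cdh1 were Myo1d (0.995), Cdcp1, Myh11, Epha1 and Pak6 (0.985), and those most like Epcam were Emc9 (0.991), Saa1, Acot1, Krt25 and Gnai1 (0.957). For Vim they were Hs2st1 (0.992), Prdm11, Clic1, Ctbp2 and Ncaph (0.99), and for Zeb2 they were Resf1 (0.972), Dnajb14, Wdr73, Ofd1 and Rtcb (0.948).

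**Figure D3:**
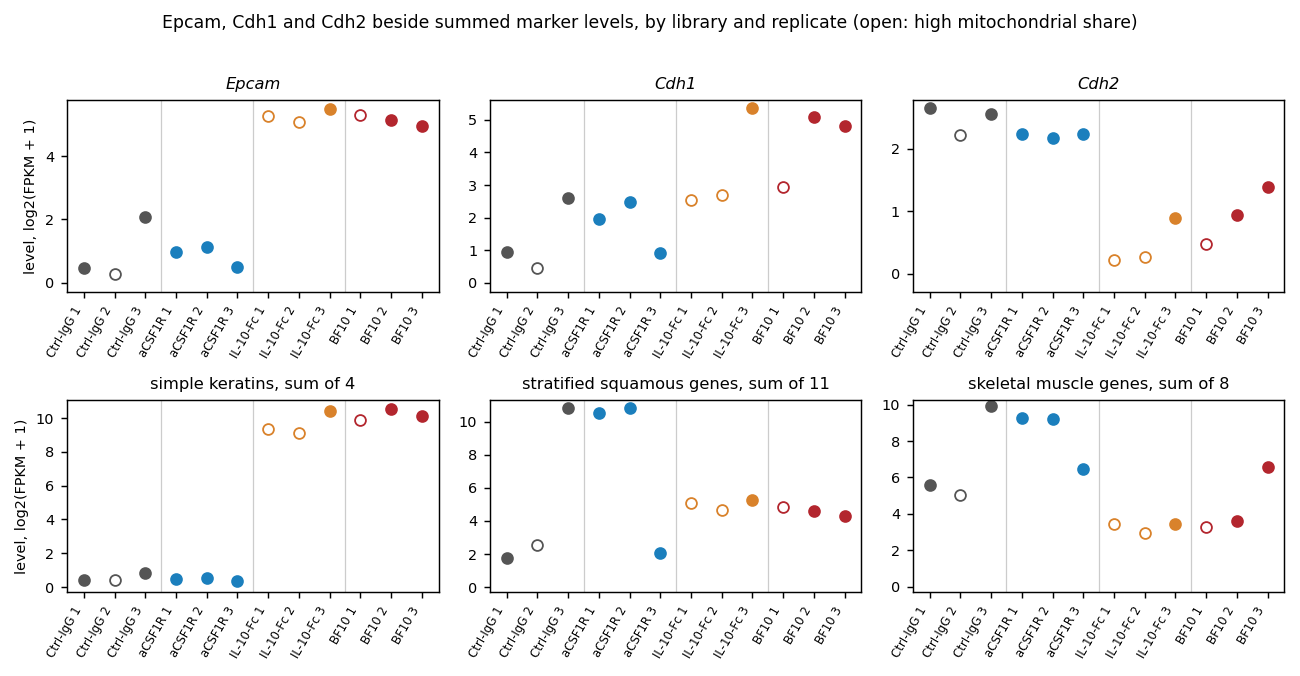
Epcam, Cdh1 and Cdh2 (top row) and the summed levels of 3 marker lists (bottom row) as log2(FPKM + 1) on the vertical axis, by library on the horizontal axis, with colours for the groups and open symbols for a high mitochondrial share. The simple keratins lie at 0.77 FPKM or less in each library of Ctrl-IgG and aCSF1R and at 560 FPKM or more in the others, and the squamous and muscle sums are high in Ctrl-IgG replicate 3 and aCSF1R replicates 1 and 2.

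Epithelial markers differed between the same libraries as Epcam. Krt7, Krt8, Krt18 and Krt19, keratins of simple epithelia, summed to 0.32 to 0.77 FPKM in Ctrl-IgG, 0.29 to 0.43 in aCSF1R, 560 to 1376 in IL-10-Fc and 964 to 1509 in BF10. All 4 were called higher in BF10 and in IL-10-Fc against Ctrl-IgG. Krt18 rose from a mean of 0.0467 FPKM in Ctrl-IgG to 510 FPKM in BF10 and 399 FPKM in IL-10-Fc. The labelled cell type, oral cancer, is of epithelial origin, and the 6 Ctrl-IgG and aCSF1R libraries were near 0 for these keratins.

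The 11 genes of stratified squamous epithelium, the lining of the mouth and the skin, divided the Ctrl-IgG and aCSF1R libraries. Their sum was 2.32 and 4.84 FPKM in Ctrl-IgG replicates 1 and 2 and 3.25 FPKM in aCSF1R replicate 3. In Ctrl-IgG replicate 3 it was 1835 FPKM, and in aCSF1R replicates 1 and 2 it was 1461 and 1774 FPKM. Krt14, a keratin of the basal layer, was 430.56 FPKM in Ctrl-IgG replicate 3 and at most 0.17 FPKM in replicates 1 and 2, and Krt13 and Krt10 followed the same libraries. These 3 libraries also held the highest Epcam (0.97 to 3.26 FPKM) and Cdh1 (2.88 to 5.08 FPKM) among the Ctrl-IgG and aCSF1R libraries. In IL-10-Fc and BF10 the squamous sum was 18.8 to 37.5 FPKM while Epcam was at its highest. The 8 skeletal muscle genes, Acta1, Mylpf and Tnnt3 the most abundant, summed to 596 to 957 FPKM in the same 3 libraries, to 31.7 to 88.5 FPKM in the other Ctrl-IgG and aCSF1R libraries and to 6.79 to 94.9 FPKM in IL-10-Fc and BF10. The part of squamous epithelium and muscle in the member levels was not tested.

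Summed markers of other cells that make Vim, Zeb2 or Cdh2 were also unequal. The 7 fibroblast genes summed to 166 to 614 FPKM in Ctrl-IgG, 487 to 595 in aCSF1R, 1018 to 2329 in IL-10-Fc and 1541 to 1883 in BF10. Of the 7, 4 were called higher in BF10 and in IL-10-Fc against Ctrl-IgG (Col1a1, Col1a2, Col3a1 and Lum). Over all tested genes 11.8% and 10.1% were called higher. The other 3 fibroblast genes were called in neither, and of these Pdgfra was -0.49 in BF10 and -0.75 in IL-10-Fc. The 6 leukocyte and macrophage genes summed to 223 to 377 FPKM in Ctrl-IgG, 141 to 158 in aCSF1R, 420 to 515 in IL-10-Fc and 438 to 613 in BF10. C1qa, the most abundant, was 120.46 to 230.55 FPKM in Ctrl-IgG and 274.11 to 399.39 FPKM in IL-10-Fc and BF10. It was called higher in both against Ctrl-IgG, and the other 5 genes were called in neither. The median difference of the 6 was 0.82 in BF10 (-0.12 over all genes) and 0.14 in IL-10-Fc (-0.39). The 5 endothelial genes summed to 23.7 to 46.8 FPKM in Ctrl-IgG, 38 to 54.1 in aCSF1R, 41.4 to 44.4 in IL-10-Fc and 51.8 to 65.6 in BF10. The 4 Schwann and nerve genes summed to at most 11.6 FPKM and the 5 salivary gland genes to at most 4.09 FPKM in any library. The part of these cells in the Vim, Zeb2 and Cdh2 levels was not tested.

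**Figure D4:**
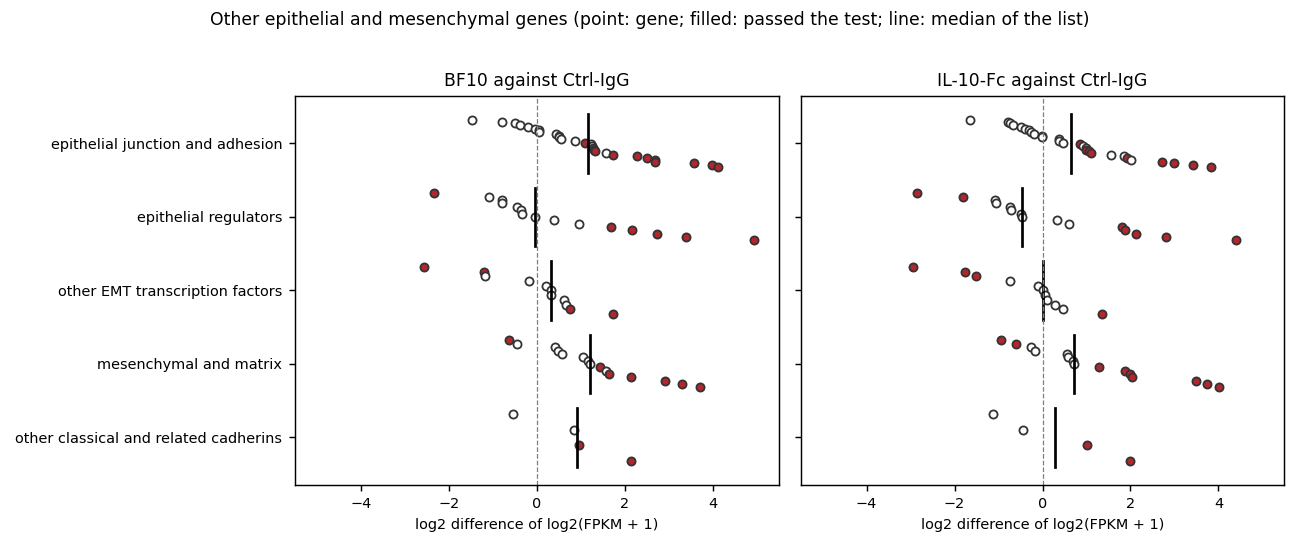
Differences of log2(FPKM + 1) from Ctrl-IgG (horizontal axis) for the tested genes of 5 further lists in BF10 (left) and IL-10-Fc (right), with 1 symbol per gene, filled where limma called it, and a line at the median of each list. The junction list reaches 4.13 (Itgb4) in BF10 with 12 filled symbols, all on the higher side.

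Other genes of the pathway were read from lists chosen, like the 10 genes, with earlier results known. Of 30 further epithelial junction and adhesion genes, 28 were tested, and 12 were called higher and 0 lower in BF10 against Ctrl-IgG (median difference 1.16, against -0.12 over all genes). In IL-10-Fc 9 were called higher and 0 lower (median 0.66, against -0.39). Of all tested genes, 11.8% were called higher and 13.2% lower in BF10, and 10.1% and 23.6% in IL-10-Fc. The other 16 and 19 of the 28 genes were not called, and some of them were lower, such as Dsc2 (-1.47 in BF10, -1.65 in IL-10-Fc). Itgb4, the integrin chain of hemidesmosomes, differed by 4.13 in BF10 and 3.42 in IL-10-Fc, and Cldn4, a claudin of tight junctions, by 3.99 and 3.84. Lsr, a protein of tricellular junctions, differed by 3.58 and 3.00, and Pkp2, a desmosomal plaque protein, by 2.69 and 2.71. All 8 of these differences were called, and BF10 against aCSF1R called 9 of the 28 genes higher and 1 lower.

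Of 17 regulators of the epithelial state, 15 were tested, with 5 called higher and 1 lower in BF10 (median -0.05, against -0.12 over all genes) and 5 higher and 2 lower in IL-10-Fc (median -0.46, against -0.39). Over all tested genes 11.8% were called higher and 13.2% lower in BF10, and 10.1% and 23.6% in IL-10-Fc. Those called higher included Spint2 (4.93 in BF10, 4.40 in IL-10-Fc) and Spint1 (2.73, 2.13), inhibitors of membrane serine proteases, and their target protease St14 (3.39, 2.81). Ovol2, a repressor of EMT factors, was the 1 regulator called lower in BF10, and in IL-10-Fc Klf4, named after its values were seen, was called lower too (-1.80, limma adjusted p 0.0187). Ovol2 was 6.54 to 14.16 FPKM in Ctrl-IgG, 0.29 to 0.97 FPKM in IL-10-Fc and 0.47 to 2.81 FPKM in BF10, with differences of -2.33 in BF10 and -2.85 in IL-10-Fc.

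Of 13 other EMT transcription factors, 11 were tested. In BF10 2 were called higher and 2 lower (median 0.32, against -0.12 over all genes). In IL-10-Fc 1 was called higher and 3 lower (median 0.00, against -0.39). These 4 calls of 11 in each comparison stand near the share over all tested genes in IL-10-Fc, 33.7%, and beside 24.9% in BF10. Klf8 was 8.03 to 10.39 FPKM in Ctrl-IgG and at most 1.62 FPKM in IL-10-Fc and BF10 (-2.57 in BF10, -2.94 in IL-10-Fc). Twist2, the relative of Twist1, was also called lower in both (-1.19, -1.51). Tcf4, a partner of Twist proteins, was called higher in both (1.74, 1.36).

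The mesenchymal side did not fall as a group. Of 15 mesenchymal and matrix genes, 15 were tested. In BF10 6 were called higher and 1 lower (median 1.22, against -0.12 over all genes), where 11.8% and 13.2% of all tested genes were. In IL-10-Fc 7 were called higher and 2 lower (median 0.71, against -0.39), where 10.1% and 23.6% of all tested genes were. In all, 24.9% of tested genes were called in BF10 and 33.7% in IL-10-Fc. Tnc (3.71 in BF10, 3.73 in IL-10-Fc) and Postn (3.30, 4.02), matrix proteins of activated stroma, and Tagln (2.91, 3.50), an actin-binding protein of smooth muscle and myofibroblasts, were called higher in both. Of 8 other cadherins, 4 were tested, and Cdh11 (2.15, 1.98), a cadherin of mesenchymal cells that the mesenchymal list also counts, and Cdh17 (0.97, 1.01), a cadherin of the intestine, were called higher in both. In aCSF1R against Ctrl-IgG and in BF10 against IL-10-Fc, limma called 0 genes of these 5 lists, with 0 and 2 called over all genes.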

How the data were processed

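The authors prepared stranded mRNA libraries from Trizol-extracted tumour RNA and sequenced them on an Illumina NextSeq instrument. The submitters' processing notes name the build GRCm38 and the tools STAR 2.7.5a, RSEM 1.3.3 and DESeq2 1.30.0 without their roles. The authors deposited FPKM values of 55401 genes in 12 libraries, rounded and not scaled between libraries, whose FPKM sums were 637596 to 976950. FPKM carries no counts, so the depth behind a value is unknown, while the steps between low values gave a relative depth that spanned 1.43-fold. The authors' tables of 4 comparisons, which hold mean normalized counts, log2 fold changes with standard errors, Wald statistics and p-values, were not used.

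Groups came from the treatment label, and replicates were numbered in sample order. No libraries were identical (0 pairs). limma 3.58.1 (lmFit, contrasts.fit, eBayes with a trend) in R 4.3.3 was fitted to log2(FPKM + 1), a pseudocount of 1, without covariates, over the 15813 genes at or above 1 FPKM in 3 or more libraries. Such differences understate the change of low genes. The fit was run on simulated data with differences planted only in genes of higher level and low spread. It was therefore not tested for low genes such as Ocln and Snai2. The 10 genes and the further lists were chosen with earlier results of these data known, so no p was adjusted over them alone. Named genes were the members, from each list at most 4 called genes with the largest differences from Ctrl-IgG and, for cell type markers, at most 3 of the highest level, the host genes, and the 5 genes most like Epcam, Cdh1, Vim and Zeb2. Outside this rule, Klf4, Pdgfra and Dsc2 were named after their values were seen. Positions came from GENCODE M21 and promoters from RefSeq, where 6 of the 10 genes had an entry. Alternatives covered the pseudocount, filters, scalings, a covariate and the libraries fitted. Libraries were left out 1 at a time, and only those of the groups in a comparison. The result of 1 gene that this rule covers is not reported here.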

Additional observations from a re-analysis of the deposited data

How the results depend on the processing

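No paired analysis was possible because the numbers in the sample titles are shared by fewer than 2 libraries between any pair of groups and the treatment labels carry no replicate number. FPKM values hold no counts, so what depth limits could not be computed, and with 3 libraries per group the intervals stay wide. Epcam and Cdh2 were called in BF10 against Ctrl-IgG, IL-10-Fc against Ctrl-IgG and BF10 against aCSF1R under every alternative in which they were tested (Cdh2 fell below a mean of 5 FPKM). Over the alternatives of the member differences named in the text, 500 kept their direction and their side of the threshold, 44 lost a call, 31 gained one and 25 changed sign, and none of those that changed sign was called. The cause of the changes below was not tested.

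Members called in BF10 against Ctrl-IgG numbered 4, and 2 with no filter, with a mean of at least 5 FPKM and after rescaling to TPM, 7 without the 4 libraries of high mitochondrial share, and 2 to 5 with a replicate left out. In IL-10-Fc against Ctrl-IgG they numbered 3, and 1 with a mean of at least 5 FPKM, 6 with median-of-ratios size factors, 5 after quantile normalization, 6 with the FPKM sum as a covariate, 5 without the 4 libraries, and 2 to 4 with a replicate left out. In BF10 against aCSF1R they numbered 5, and 2 with no filter and after rescaling to TPM, 3 with a mean of at least 5 FPKM, and 2 to 5 with a replicate left out. In the other 3 comparisons they numbered 0 under every alternative.

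Genes called over the whole table in BF10 against Ctrl-IgG numbered 3941, and 2135 with a mean of at least 5 FPKM, 6901 with the covariate, 6394 without the 4 libraries, and 2603 (without BF10 replicate 2) to 3739 with a replicate left out. For IL-10-Fc they numbered 5326, and 3450 with a mean of at least 5 FPKM, 2734 in a fit of these groups alone, and 3565 to 8042 (without IL-10-Fc replicate 3) with a replicate left out. For BF10 against aCSF1R they numbered 3955, and 2121 with a mean of at least 5 FPKM, 6740 with the covariate, 6418 without the 4 libraries, and 2494 (without aCSF1R replicate 1) to 3394 with a replicate left out, with 2619 without BF10 replicate 2. For BF10 against IL-10-Fc they numbered 2, and 0 with a mean of at least 5 FPKM and in a fit of these groups alone, 4 with median-of-ratios size factors, 1 after rescaling to TPM, 64 without the 4 libraries, and 1 to 115 (without BF10 replicate 1) with a replicate left out. The departure from the sum called 1 gene, and 0 with a pseudocount of 0.1 and with a mean of at least 5 FPKM, 2 with no filter and with median-of-ratios size factors, 22 without the 4 libraries, and 1 to 28 (without BF10 replicate 1) with a replicate left out. aCSF1R against Ctrl-IgG called 0 genes with each library of these groups left out.

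In BF10 against Ctrl-IgG, Snai1 ran from -0.97 to 0.02 (without Ctrl-IgG replicate 1) with a replicate left out. In IL-10-Fc against Ctrl-IgG, Zeb1 was 0.30 with median-of-ratios size factors, 0.26 after quantile normalization, 0.27 with the covariate, 0.33 without the 4 libraries, and 0.01 and 0.10 without IL-10-Fc replicates 1 and 2, and it ran from -0.25 to 0.10 with a replicate left out. Zeb2 was 0.07 and 0.06 with median-of-ratios and quantile scaling, and Twist1 was -0.16 after rescaling to TPM, -0.22 without Ctrl-IgG replicate 2 and -0.25 without IL-10-Fc replicate 3, and ran from -0.25 to 0.30 with a replicate left out. In BF10 against aCSF1R, Zeb1 was -0.13 and -0.08 without BF10 replicates 2 and 3 and ran from -0.13 to 0.43 with a replicate left out, Zeb2 was 0.00 and 0.01 with the same 2 scalings, and Twist1 was -0.03 after rescaling to TPM. In aCSF1R against Ctrl-IgG, Epcam was 0.16 with a pseudocount of 0.1, 0.50 without Ctrl-IgG replicate 3 and 0.11 without aCSF1R replicate 3, and ran from -0.41 to 0.50 with a replicate left out. In BF10 against IL-10-Fc, Epcam was 0.08 after rescaling to TPM, Cdh1 was -0.53 with the covariate and -0.40 without the 4 libraries, and Vim was -0.03 and -0.35 in the same settings.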
